A study of Mus musculus with 6 samples.

Results

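The genes described here are 10 transcripts of the actin cytoskeleton and of the vimentin filament, measured in the mouse melanoma line B16-F10 grown in culture. They are the actins Actb and Actg1, the proteins that handle actin subunits Pfn1, Cfl1, Tmsb4x and Tmsb10, the tropomyosins Tpm1 and Tpm4, the filament protein Vim and the membrane linker Ezr. They were chosen by name, and all 10 were found by their Ensembl identifier among the 39179 genes of the count tables. Poly(A)-selected RNA was sequenced from 3 libraries of cells with an intact Sirpa gene (Sirpa-WT) and 3 of cells with a Sirpa knockout (Sirpa-KO). Both groups were grown without any treatment that the labels name, and Sirpa encodes SIRPα, a surface receptor that binds CD47. How the knockout was made, whether it is 1 clone or a pool, and whether replicates were separate cultures are not given in the sources used here, so every p-value below reflects the spread among libraries, which may be technical. The comparison asks how steady-state expression differs between the Sirpa-WT and Sirpa-KO lines.

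Actin exists as single subunits and as filaments that grow at one end and shrink at the other. Profilin (Pfn1) delivers subunits to growing ends, cofilin (Cfl1) severs and unravels old filaments, and β-thymosins (Tmsb4x, Tmsb10) hold subunits in reserve. Tropomyosins lie along filaments and govern which motors and severing proteins reach them, ezrin ties filaments to the plasma membrane, and vimentin forms the separate intermediate filament network of mesenchymal cells. In melanoma cells these systems shape the cell cortex, adhesion and migration. Many of these genes have intronless copies elsewhere in the genome, called processed pseudogenes, to which a read may be assigned.

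One library stood apart and is given separately throughout. Total counts were 338824 to 411695 in 5 libraries (the shallow libraries) and 29877270 in Sirpa-KO replicate 1 (the deep library). In a shallow library a floor of 3 counts equals 7.29 to 8.85 CPM, the unit in which every library's counts are scaled to the same total, against 0.1004 CPM in the deep library; such floors cover counting error only. Annotated pseudogenes took 27.0% to 30.2% of counts in the shallow libraries and 0.216% in the deep library. The counts alone do not settle whether the shallow and the deep tables came from like material and a like alignment; this was not tested, and it limits what every shallow level and the 5-library comparison can say about these cells. Sirpa counts were 12, 7 and 3 for Sirpa-WT, 1584 for the deep library and 6 for each of the other Sirpa-KO libraries, which does not check the genotype labels. All 9 listed melanocyte markers had counts in each group, with summed levels of 16834 to 20110 CPM in Sirpa-WT, 13553 to 14192 CPM in Sirpa-KO replicates 2 and 3 and 18027 CPM in the deep library. The sample labels give the cell line as Pmel and both source and tissue as tumour, unlike the series text, which describes cultured B16-F10 cells. The leukocyte markers Ptprc, Cd3e and Tyrobp were at 0 in the shallow libraries, and the 12 leukocyte markers summed to at most 35.4 CPM in any library.

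Some of these genes lie very close in sequence to their pseudogenes, which bears on where their reads can be counted, and cofilin is shown as the example. The first 90 coding bases of Cfl1 (chr19:5490600-5492583, plus strand, interrupted by an intron in the genome) are set beside those of the intronless copies Gm8682 (chrX:160036321-160036410, plus) and Gm6180 (chr8:42246911-42247000, plus). Sequences are those of GENCODE mouse release 21 on GRCm38, written 5′ to 3′, and capitals mark bases that differ from the first line of each set.
Cfl1: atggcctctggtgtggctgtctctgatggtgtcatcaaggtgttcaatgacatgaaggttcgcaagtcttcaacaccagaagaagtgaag
Gm8682: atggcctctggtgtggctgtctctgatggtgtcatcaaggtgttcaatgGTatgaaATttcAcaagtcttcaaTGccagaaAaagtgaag
Gm6180: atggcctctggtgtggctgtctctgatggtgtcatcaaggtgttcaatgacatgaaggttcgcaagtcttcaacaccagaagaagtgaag
Gm8682 differed from Cfl1 at 8 of these bases and was 92.6% identical over the aligned coding sequence. Gm6180 was the same as Cfl1 in this window and 98.8% identical over 498 aligned bases.

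The β-thymosins code for 44 codons each, and their whole coding sequences are shown because one was counted at a high level in every library and the other hardly at all. Tmsb10 (chr6:72957618-72958012, minus strand) is followed by Tmsb4x (chrX:167207501-167208036, minus strand).
Tmsb10: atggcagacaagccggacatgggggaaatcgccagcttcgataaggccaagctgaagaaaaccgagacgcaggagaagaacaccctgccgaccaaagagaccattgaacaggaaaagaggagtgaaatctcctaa
Tmsb4x: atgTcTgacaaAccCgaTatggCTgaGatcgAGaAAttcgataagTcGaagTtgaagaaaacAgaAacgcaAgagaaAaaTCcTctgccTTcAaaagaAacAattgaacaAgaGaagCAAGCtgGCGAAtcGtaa
They differed at 40 of 135 bases, an identity of 70.4%, and no annotated pseudogene in the reference met the sharing rule used below for Tmsb4x.

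Cofilin had the highest level per length of the 10 genes in Sirpa-WT, and Ezr the lowest of those detected. Levels per kilobase of exon were 517 ± 30.5 CPM for Cfl1, 258 ± 19.8 for Tmsb10, 214 ± 20.7 for Actb and 156 ± 25.1 for Vim (SD, n = 3). Below these came Pfn1 with 107 ± 25, Actg1 with 87.4 ± 15.7, Tpm4 with 55.1 ± 4.35, Tpm1 with 52.6 ± 2.67 and Ezr with 9.56 ± 2.57 CPM per kilobase (SD, n = 3). Neighbours whose ranges over the 3 libraries overlapped were Tmsb10 and Actb, Pfn1 and Actg1, and Tpm4 and Tpm1, so these pairs cannot be ordered. These levels leave out counts on pseudogenes. In Sirpa-WT those averaged 69.6% of the counts of gene plus pseudogenes for Actg1, 54.0% for Cfl1, 44.6% for Actb and 25.9% for Tmsb10. No other gene of the 10 had such counts, and the order with them added was not computed. In the deep library Cfl1 again came first, with 970 CPM per kilobase, but Vim stood next with 923, ahead of Actb with 636 and Tmsb10 with 606. Actg1 stood eighth there with 117 CPM per kilobase, below Tpm4 with 160 and Tpm1 with 138. Together the 10 genes took 0.265% to 0.305% of all counts in Sirpa-WT, 0.341% and 0.383% in Sirpa-KO replicates 2 and 3 and 0.796% in the deep library.

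**Figure D1:**
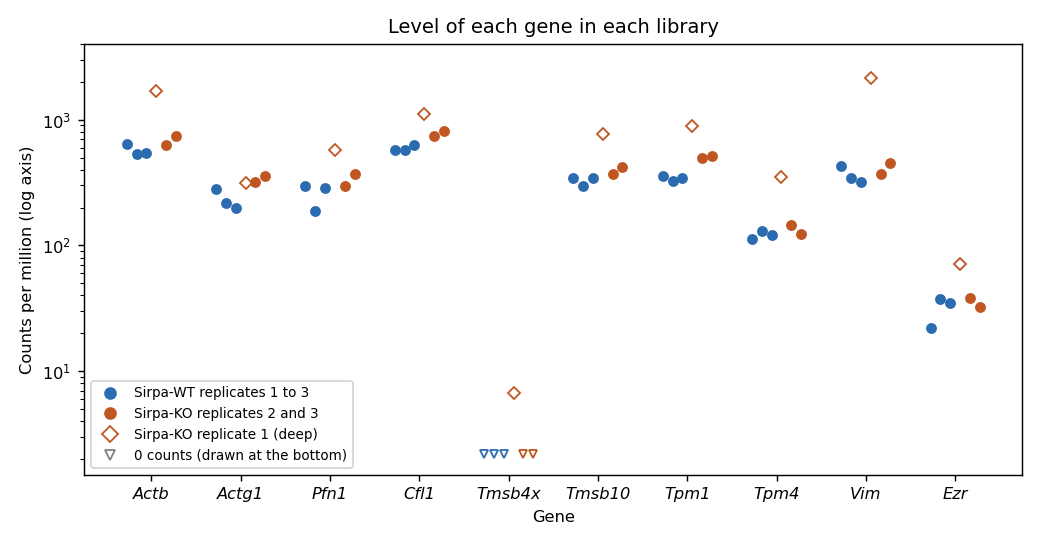
Level of each of the 10 genes in each library, in CPM on a log axis; each point is 1 library, and open triangles at the bottom stand for 0 counts. The deep library (open diamonds) lies above all shallow libraries for 8 of the 9 genes with counts in every library, and the 2 shallow Sirpa-KO libraries lie above all 3 Sirpa-WT libraries for Actg1, Cfl1, Tmsb10 and Tpm1.

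Tropomyosin Tpm1 was the one gene of the 10 whose level rose past the threshold in Sirpa-KO, and only when the deep library was left out. Over the 5 shallow libraries edgeR's quasi-likelihood test called 1 of the 9 genes tested (11.1%) at an adjusted p under 0.05, where it called 5.84% of all 5510 genes tested in either direction, 1.32% as higher in Sirpa-KO and 4.52% as lower. At an unadjusted p under 0.05 there were 3 of 9 (33.3%), namely Tpm1, Actg1 and Cfl1, against 20.8% of all genes. The fitted log2 fold change was above 0 for all 9 under each of the 3 scalings tried, with a median of 0.16 against 0.01 for all genes tested and 0.04 for protein-coding ones. Scaling by library size alone moved the median of all genes from 0.01 to 0.15 and the calls over all genes from 73 higher and 249 lower to 279 higher and 128 lower. When a trend across genes on the ratio of deep to shallow level was removed from each shallow library, 5 of the 9 values (Actb, Tmsb10, Tpm4, Vim and Ezr) were below 0. The deep library is itself Sirpa-KO and the shallow ones are of both genotypes. Removing this trend, here and below, can therefore also remove part of a difference between genotypes. With all 6 libraries none of the 9 genes passed at the adjusted or the unadjusted threshold; of all 5397 genes tested then, 0 passed adjusted (0%) and 344 (6.37%) unadjusted in edgeR, while DESeq2 called 1, which was none of these genes. The 9 genes then had a median log2 fold change of 0.52, beside 0.39 for protein-coding genes and 0.11 for all genes.

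In 4 genes (Actg1, Cfl1, Tmsb10 and Tpm1) every Sirpa-KO library stood above every Sirpa-WT library. The same 4 genes separated the groups with and without the deep library, and 26.3% of all genes tested over 5 libraries and 20.4% over 6 separated them in that direction. No gene of the 10 showed the reverse, which 11.8% of all genes did over 5 libraries and 10.2% over 6. RNA from the whole culture was sequenced, so fewer cells of a type and less RNA per cell cannot be told apart in any of these values.

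**Figure D2:**
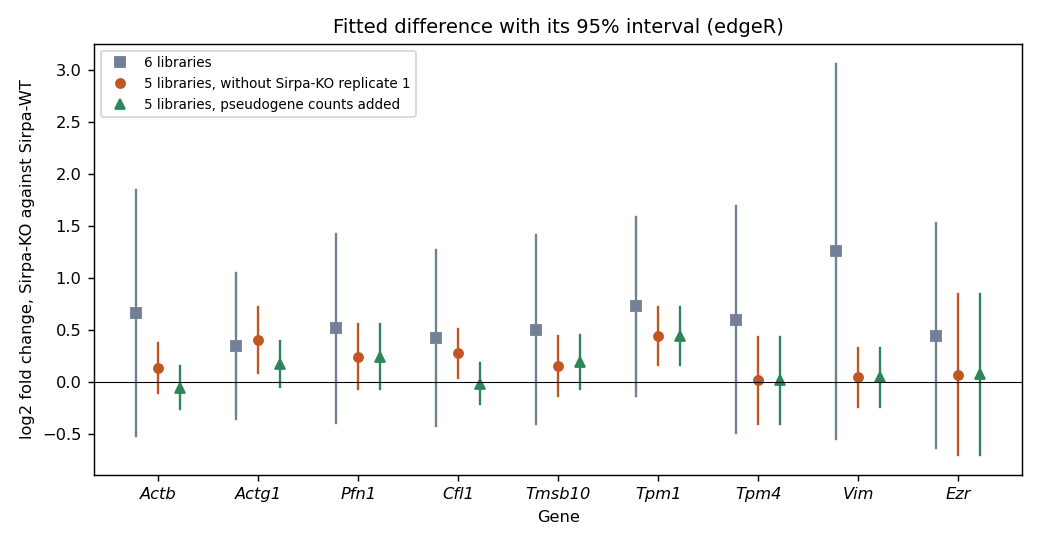
Fitted log2 fold change of Sirpa-KO against Sirpa-WT for the 9 genes tested, with 95% intervals from edgeR; squares use 6 libraries, circles the 5 shallow libraries, and triangles the 5 shallow libraries with counts of annotated pseudogenes added to each gene. Tpm1 at 0.44 lies above 0 in both 5-library fits, the intervals of all 9 genes cross 0 over 6 libraries, and the triangles of Actb and Cfl1 lie below 0.

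Cytoplasmic β-actin, encoded by Actb (ENSMUSG00000029580, GRCm38 chr5:142903115-142906754, minus strand), is the commonest actin of most non-muscle cells and a customary reference gene. It measured 636, 535 and 547 CPM in Sirpa-WT replicates 1 to 3, 626 and 745 CPM in Sirpa-KO replicates 2 and 3, and 1703 CPM in the deep library. The shallow groups overlapped, since Sirpa-KO replicate 2 lay below Sirpa-WT replicate 1, while the deep library stood far above both. The group means were 573 ± 55.3 CPM (SD, n = 3) and 685 ± 84.5 CPM (SD, n = 2). In the edgeR test the log2 fold change over 5 libraries was 0.14 ± 0.12 (SE, adjusted p = 0.577), with a 95% interval of -0.10 to 0.38. Over 6 libraries it was 0.67 ± 0.48 (SE, edgeR adjusted p = 0.585).

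Cytoplasmic γ-actin, Actg1 (ENSMUSG00000062825, chr11:120345690-120348542, minus strand), builds the same filaments from a nearly identical protein. Its levels were 279, 218 and 200 CPM in Sirpa-WT against 319 and 356 CPM in Sirpa-KO replicates 2 and 3 and 311 CPM in the deep library. Every Sirpa-KO library was higher than every Sirpa-WT library, and here the deep library lay just below the other Sirpa-KO libraries rather than far above them. The mean was 232 ± 41.7 CPM (SD, n = 3) in Sirpa-WT and 338 ± 26.6 CPM (SD, n = 2) in Sirpa-KO replicates 2 and 3. The edgeR log2 fold change of 0.41 ± 0.16 (SE, 95% interval 0.09 to 0.73) did not pass after adjustment (adjusted p = 0.111). It passed with scaling by library size alone (0.55, adjusted p = 0.0194), with the replicate number as a block (0.57, adjusted p = 0.0161) and without Sirpa-WT replicate 1 (0.57, adjusted p = 0.0197). Over 5 libraries replicate 1 is Sirpa-WT replicate 1 alone. Here and below, the block and that omission are therefore nearly the same fit, not separate alternatives.

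The ratio of Actb to Actg1 counts, a comparison within each library, was 2.28, 2.45 and 2.74 in Sirpa-WT, against 1.96 and 2.09 in Sirpa-KO replicates 2 and 3. The shallow groups did not overlap in this ratio, and the deep library, at 5.47, lay on the other side of Sirpa-WT. The direction between genotypes therefore turned with the library used. How often ratios of other gene pairs separate the shallow groups was not computed. The ratio of Cfl1 to Pfn1 counts overlapped, at 1.92, 3.03 and 2.21 in Sirpa-WT against 2.52 and 2.19 in Sirpa-KO replicates 2 and 3.

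Both actins share sequence with pseudogenes. By the sharing rule, an annotated pseudogene belongs to a gene when at least 10% of its 25-base words occur in that gene's transcripts; 3 pseudogenes met it for Actb and 11 for Actg1, of which 6 are in the count tables. For Actb, 46.9%, 45.4% and 41.7% of the counts of gene plus pseudogenes lay on the pseudogenes in Sirpa-WT, 38.0% and 36.3% in Sirpa-KO replicates 2 and 3, and 0% in the deep library. For Actg1 the shares were 69.0%, 68.4% and 71.4% in Sirpa-WT, 63.3% and 64.7% in Sirpa-KO replicates 2 and 3 and 1.0% in the deep library. In both genes the pseudogene share was lower in each shallow Sirpa-KO library than in any Sirpa-WT library. The same held for the share of all counts on annotated pseudogenes. That share was 29.2%, 29.1% and 30.2% in Sirpa-WT, against 27.2% and 27.0% in Sirpa-KO replicates 2 and 3. For Actb and Actg1 an exact permutation test of the 5 libraries gave a 2-sided p of 0.2 each, the smallest this design allows (0.267 after Benjamini-Hochberg adjustment over 4 genes).

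Single pseudogenes carried most of these counts. Gm8464, assigned to Actb, was counted 188, 118 and 102 times in Sirpa-WT libraries, 94 and 115 times in Sirpa-KO replicates 2 and 3 and 0 times in the deep library. Gm12003, assigned to Actg1, was counted 205, 123 and 125 times in the Sirpa-WT libraries, more than Actg1 itself (115, 75 and 69), 130 and 155 times in Sirpa-KO replicates 2 and 3 and 0 times in the deep library. Only 10.2% of the 25-base words of Gm8464 and 14.4% of those of Gm12003 occur in transcripts of Actb and Actg1, respectively. All pseudogene counts of Actb lay on Gm8464 and Gm4750, each at 10.2% and so just above the cutoff of 10%. The closer copy Gm15725, at 33.3%, had 0 counts in every library. No other cutoff was tried, so the Actb share rests on this one. Each pseudogene was assigned among the 10 genes only, without a comparison to other coding genes. By contrast Gm12715, which shares 94.9% of its words with Actg1, had 10 to 34 counts in the shallow libraries and 74 in the deep one. The pseudogenes with the most counts in shallow libraries were thus not those closest in sequence. What part they had in the differences between genotypes was not tested beyond adding their counts to the gene: the 5-library log2 fold change then became -0.05 for Actb (95% interval -0.26 to 0.15) and 0.17 for Actg1 (-0.05 to 0.39), and over 6 libraries 0.15 and -0.20.

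**Figure D3:**
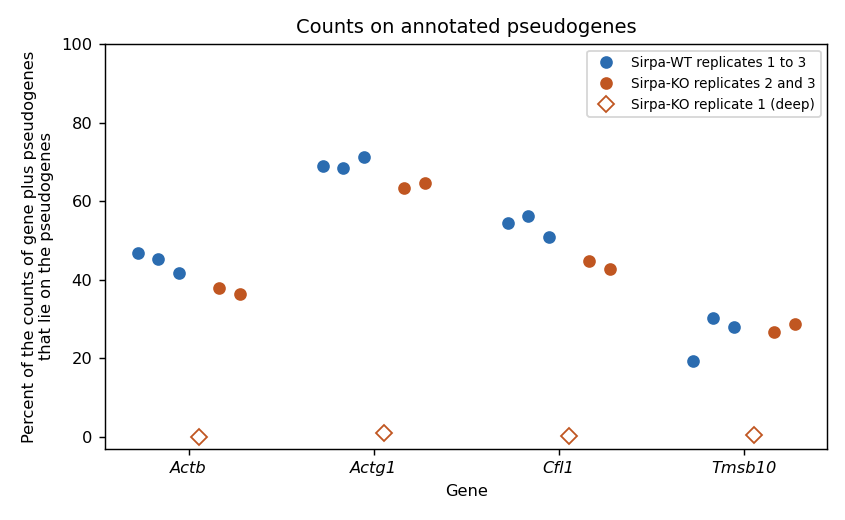
Percent of the counts of a gene plus its annotated pseudogenes that lie on the pseudogenes, for the 4 genes with such counts; each point is 1 library. In Actb, Actg1 and Cfl1 the shallow Sirpa-KO libraries lie below the Sirpa-WT libraries, in Tmsb10 the groups overlap, and the deep library lies at 1.0% or less in each.

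Muscle actins were counted in the shallow libraries as well. Per kilobase, Acta1 averaged 197 CPM over the 5 shallow libraries, between Actb with 231 and Actg1 with 103. Skeletal muscle actin Acta1 had 418, 259 and 217 CPM in Sirpa-WT, 213 and 302 CPM in Sirpa-KO replicates 2 and 3 and 0.167 CPM (5 counts) in the deep library. Counts of cardiac actin Actc1 were 27, 14 and 17 for Sirpa-WT, 13 and 19 for Sirpa-KO replicates 2 and 3 and 3 for the deep library. Of the 6 listed muscle markers, 4 (Acta1, Acta2, Des and Myh11) had counts in both shallow groups. Tagln and Ckm were at 0 in every shallow library, and all 6 had counts in the deep library. The 6 markers summed to 218 to 425 CPM in the shallow libraries against 5.59 CPM in the deep library. Nearly all of the shallow sum was Acta1 alone, at 213 to 418 CPM. Neither muscle actin passed the edgeR test between genotypes over 5 libraries (log2 fold change -0.35, adjusted p = 0.199, and -0.33, adjusted p = 0.608).

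Profilin 1, Pfn1 (ENSMUSG00000018293, chr11:70651850-70654644, minus strand), had 299, 189 and 287 CPM in Sirpa-WT, 295 and 373 CPM in Sirpa-KO replicates 2 and 3 and 576 CPM in the deep library. The groups overlapped, and Sirpa-WT replicate 2 was the lowest of the 6. Means were 258 ± 60.1 CPM (SD, n = 3) and 334 ± 54.8 CPM (SD, n = 2), and the edgeR log2 fold change was 0.25 ± 0.16 over 5 libraries (SE, adjusted p = 0.392, 95% interval -0.07 to 0.56). No annotated pseudogene met the sharing rule, and 0.66% of the 25-base words of Pfn1 occur in any pseudogene.

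Cofilin 1, Cfl1 (ENSMUSG00000056201, chr19:5490485-5494029, plus strand), had 573, 573 and 634 CPM in Sirpa-WT. Sirpa-KO replicates 2 and 3 had 744 and 816 CPM and the deep library 1114 CPM. All 3 Sirpa-KO libraries lay above Sirpa-WT, with shallow means of 593 ± 35.0 CPM (SD, n = 3) and 780 ± 51.1 CPM (SD, n = 2). The log2 fold change over 5 libraries was 0.28 ± 0.12 (SE, 95% interval 0.04 to 0.51), which did not pass in edgeR after adjustment (adjusted p = 0.153). With scaling by library size alone it was 0.41 (edgeR adjusted p = 0.0141).

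Like the share of all counts on annotated pseudogenes, the pseudogene share of cofilin was lower in the shallow Sirpa-KO libraries. Its mean difference was -10.2 percentage points, beside -7.50 for Actb and -5.60 for Actg1. The share of cofilin was 54.5%, 56.3% and 51.0% in Sirpa-WT, against 44.9% and 42.6% in Sirpa-KO replicates 2 and 3, and 0.261% in the deep library. The 5-library means were 54.0% ± 2.70 (SD, n = 3) and 43.7% ± 1.57 (SD, n = 2), with an exact permutation p of 0.2 (2-sided, the smallest possible). The X-linked copy Gm8682, printed above with its 8 differences, was counted 241, 229 and 191 times in Sirpa-WT libraries, 162 and 189 times in Sirpa-KO replicates 2 and 3 and 0 times in the deep library. Gm8682 fell in the 5-library edgeR test, by 0.40 ± 0.13 on the log2 scale (SE, adjusted p = 0.0412), the opposite direction to the value of Cfl1. That call was lost with DESeq2 (adjusted p = 0.0988), without the count filter (0.0595), with library size scaling (0.210), without Sirpa-WT replicate 2 (0.231), Sirpa-KO replicate 2 (0.312) or Sirpa-KO replicate 3 (0.172), and with the trend removed (-0.07, adjusted p = 0.890). With the counts of gene and pseudogenes added together, the log2 fold change was -0.01 over 5 libraries (95% interval -0.21 to 0.18) and -0.14 over 6. Gm6180, whose window is identical to that of Cfl1, had 16 to 31 counts in shallow libraries and 83 in the deep one.

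Thymosin β4, Tmsb4x (ENSMUSG00000049775, chrX:167207093-167209315, minus strand), the major actin-sequestering peptide of many cell types, had 0 counts in all 5 shallow libraries and 202 counts (6.76 CPM) in the deep library. In any single shallow library a count of 0 allows 7.29 to 8.85 CPM, but over the 5 together, 0 of 1807537 counts allows up to 1.66 CPM. Against this pooled floor, which covers counting error only, the deep library was at least 4.07-fold higher. The gene did not pass the count filter and has no test, and no shallow library of either genotype gave a value to compare.

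Thymosin β10, Tmsb10 (ENSMUSG00000079523, chr6:72957347-72958748, minus strand), was counted at a high level, unlike Tmsb4x, with 773 CPM in the deep library. Sirpa-WT libraries had 345, 300 and 341 CPM, and Sirpa-KO replicates 2 and 3 had 372 and 424 CPM. Each Sirpa-KO library was above each Sirpa-WT library, with shallow means of 329 ± 25.2 CPM (SD, n = 3) and 398 ± 37.1 CPM (SD, n = 2). The 5-library log2 fold change was 0.16 ± 0.15 (SE, edgeR adjusted p = 0.600, 95% interval -0.13 to 0.45). Its pseudogenes took 19.3%, 30.4% and 28.0% of the joint counts in Sirpa-WT, 26.7% and 28.8% in Sirpa-KO replicates 2 and 3 and 0.409% in the deep library, with no separation of the groups (exact permutation p = 1.0, 2-sided). Adding those counts left the log2 fold change at 0.20. Other protein-coding genes hold 28.8% of the 25-base words of Tmsb10.

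Tropomyosin 1, Tpm1 (ENSMUSG00000032366, chr9:67022590-67049406, minus strand), encodes several isoforms that wrap and stabilise filaments, stress fibres among them. It had 357, 323 and 344 CPM in Sirpa-WT, 499 and 511 CPM in Sirpa-KO replicates 2 and 3 and 893 CPM in the deep library. The 2 shallow Sirpa-KO libraries were nearly equal and stood clear of the 3 Sirpa-WT libraries, at 505 ± 8.87 CPM (SD, n = 2) against 341 ± 17.3 CPM (SD, n = 3). The log2 fold change over 5 libraries was 0.44 ± 0.14 (SE, edgeR adjusted p = 0.0330, 95% interval 0.17 to 0.72). Over 6 libraries it was 0.73 ± 0.35 (SE, edgeR adjusted p = 0.574). Pseudogenes share 0.015% of its 25-base words, so the value was 0.44 as well when pseudogene counts were added to the genes that have them.

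The call for Tpm1 depended on the fit while its direction did not: the log2 fold change lay between 0.25 and 0.58 over the 5-library alternatives. The call was lost with DESeq2 (adjusted p = 0.0933), without the count filter (0.152), among protein-coding genes only (0.0619), without Sirpa-WT replicate 2 (0.158), Sirpa-KO replicate 2 (0.233) or Sirpa-KO replicate 3 (0.299), and once the trend on the ratio of the deep to the shallow libraries was removed (0.25, adjusted p = 0.471).

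Tropomyosin 4, Tpm4 (ENSMUSG00000031799, chr8:72134975-72153142, plus strand), a short non-muscle tropomyosin, had 112, 131 and 122 CPM in Sirpa-WT, 145 and 122 CPM in Sirpa-KO replicates 2 and 3 and 353 CPM in the deep library. The shallow groups overlapped, at 121 ± 9.58 CPM (SD, n = 3) and 134 ± 15.7 CPM (SD, n = 2). The log2 fold change was 0.02 ± 0.21 over 5 libraries (SE, edgeR adjusted p = 0.973, 95% interval -0.40 to 0.44). Counts of Tpm1 were 3.20, 2.47 and 2.83 times those of Tpm4 in Sirpa-WT, 3.45 and 4.18 times in Sirpa-KO replicates 2 and 3 and 2.53 times in the deep library. The shallow groups separated in this ratio, with the deep library inside the Sirpa-WT range. The share of all gene pairs whose ratio separates these groups was not computed.

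Vimentin, Vim (ENSMUSG00000026728, chr2:13573927-13582826, plus strand), showed the widest gap of the 9 tested genes between the deep library and the rest. It had 430, 343 and 318 CPM in Sirpa-WT, 369 and 451 CPM in Sirpa-KO replicates 2 and 3 and 2156 CPM in the deep library. Among the shallow libraries the groups overlapped, at 364 ± 58.6 CPM (SD, n = 3) and 410 ± 58.4 CPM (SD, n = 2), and the log2 fold change was 0.05 ± 0.14 (SE, edgeR adjusted p = 0.897, 95% interval -0.24 to 0.33). With the deep library added it was 1.26 ± 0.74 (SE, edgeR adjusted p = 0.574, 95% interval -0.54 to 3.06). By counts, Vim ranked as the 25th gene of the deep library, ahead of Actb at 37 and Cfl1 at 72. In the shallow libraries Actb ranked between 184 and 295 and Cfl1 between 161 and 271. None of the 25-base words of Vim occurs in an annotated pseudogene.

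Ezrin, Ezr (ENSMUSG00000052397, chr17:6738041-6782784, minus strand), was counted too thinly in the shallow libraries for a narrow comparison. Counts were 9, 13 and 12 for Sirpa-WT, 13 and 12 for Sirpa-KO replicates 2 and 3 and 2120 for the deep library, equal to 31.5 ± 8.46 CPM (SD, n = 3), 35.5 ± 4.05 CPM (SD, n = 2) and 71.0 CPM. The groups overlapped, and in the 5-library fit the log2 fold change, 0.07 ± 0.40 (SE, edgeR adjusted p = 0.944), had a 95% interval from -0.70 to 0.85.

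The deep library differed from the shallow ones by unequal amounts across these genes. Its level over the mean of the 5 shallow libraries was 5.64 for Vim, 2.80 for Tpm4, 2.76 for Actb, 2.19 for Tpm1 and 2.17 for Tmsb10. It was 2.14 for Ezr, 1.996 for Pfn1, 1.67 for Cfl1 and 1.13 for Actg1. On the log2 scale with a prior count of 2 the 9 genes had a median ratio of 1.13, beside a median of 0.96 over 4295 protein-coding genes, whose 10th and 90th percentiles were -1.27 and 1.81. Vim, at 2.51, lay above the 90th percentile, and Actg1, at 0.22, was the lowest of the 9. It is a single library, so its depth and its other features cannot be told apart.

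A wider list of 98 other filament genes, grouped by role, held genes that rose and genes that fell. Of 67 tested over 5 libraries, 4 were called (5.97%, near the 5.84% of all genes) and 19 (28.4%, against 20.8% of all genes) had an unadjusted p under 0.05. Fitted values were above 0 for 41 and below 0 for 26, with a median of 0.06. Over 6 libraries 0 of 68 were called and 3 (4.41%, against 6.37% of all genes) had an unadjusted p under 0.05 in edgeR, and DESeq2 also called 0 of them.

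**Figure D4:**
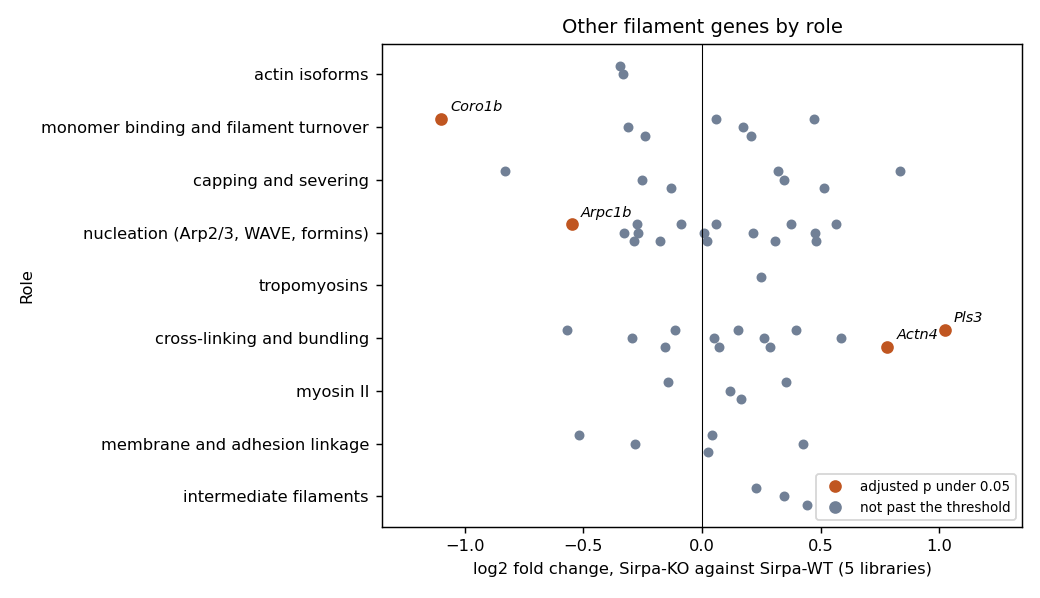
Log2 fold change of Sirpa-KO against Sirpa-WT over the 5 shallow libraries for 58 other filament genes, 1 point per gene, arranged by role; orange points passed the threshold. Actn4 and Pls3 lie to the right among cross-linkers, and Coro1b and Arpc1b to the left among turnover and nucleation genes.

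Cross-linking and bundling proteins included both genes that rose. Actn4, α-actinin 4, which cross-links filaments at adhesions and the cell edge, had 80.2, 102 and 116 CPM in Sirpa-WT, 162 and 204 CPM in Sirpa-KO replicates 2 and 3 and 490 CPM in the deep library. It rose by 0.78 ± 0.21 on the log2 scale (SE, edgeR adjusted p = 0.00666). Pls3, the bundling protein plastin 3, had 31.6, 43.6 and 14.5 CPM in Sirpa-WT, 73.8 and 59.8 CPM in Sirpa-KO replicates 2 and 3 and 201 CPM in the deep library, and rose by 1.02 ± 0.33 (SE, edgeR adjusted p = 0.0415). In both genes all Sirpa-KO libraries lay above all Sirpa-WT libraries. Of all genes tested, 26.3% separated that way over 5 libraries and 20.4% over 6. The test had already picked both genes on the 5 shallow libraries, so their separation there adds no support. The other 11 tested genes of the role did not pass, among them the abundant Cnn3 (0.29, adjusted p = 0.297) and Sptan1 (-0.30, adjusted p = 0.0759), and 9 of all 13 had values above 0.

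The call for Actn4 was lost with the replicate block (0.63, adjusted p = 0.0799), without Sirpa-WT replicate 1 (0.0647) or Sirpa-KO replicate 3 (0.311) and with the trend removed (0.54, adjusted p = 0.175). The call for Pls3, which rested on few counts, was lost under more of the alternatives, without the count filter (0.139), with the block (0.0632), without either shallow Sirpa-KO library (0.370 and 0.128), without Sirpa-WT replicate 1 (0.0665) or 3 (0.196), among protein-coding genes only (0.0626) and with the trend removed (0.277).

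Arpc1b, a subunit of the Arp2/3 complex that seeds branched filaments, was the clearest fall. It had 940, 1047 and 1134 CPM in Sirpa-WT, 720 and 821 CPM in Sirpa-KO replicates 2 and 3 and 260 CPM in the deep library, so every Sirpa-KO library was below every Sirpa-WT library. Of all genes tested, 11.8% separated in that direction over 5 libraries and 10.2% over 6. Arpc1b fell by 0.55 ± 0.11 on the log2 scale (SE, edgeR adjusted p = 8.36e-05). Without Sirpa-KO replicate 2 the value was -0.48 (adjusted p = 0.0558), and with the trend removed it was -0.28 (adjusted p = 0.181). Of 16 tested nucleation genes it was the one called, and 9 had values above 0 and 7 below, with a median of 0.02. The abundant Arpc5, another subunit of the complex, had a value of -0.33 (edgeR adjusted p = 0.149), and Nckap1, part of the WAVE complex that switches Arp2/3 on, -0.27 (adjusted p = 0.129).

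Coro1b, a coronin that takes part in dismantling branched networks, had 60.7, 55.3 and 69.5 CPM in Sirpa-WT and 29.5 and 32.6 CPM in Sirpa-KO replicates 2 and 3. It fell by 1.10 ± 0.34 on the log2 scale (SE, edgeR adjusted p = 0.0298), while the deep library, at 93.2 CPM, stood above every other library. That library thus went against the direction of its shallow group mates. The call was lost without the count filter (0.0654), with scaling by library size alone (0.0644), with the replicate block (just above the threshold), and without Sirpa-WT replicate 1 (0.0509) or 3 (0.0704) or either shallow Sirpa-KO library (0.231 and 0.190). Of the other 6 tested genes of monomer binding and turnover none passed, including the abundant Wdr1, which helps cofilin (-0.24, adjusted p = 0.448), and Cfl2, the muscle form of cofilin (0.21, adjusted p = 0.680).

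No gene of the remaining roles was called in this comparison. Among 7 tested capping and severing genes the median log2 fold change was 0.32. Capza1 and Capzb, which cap the growing filament end, had values of -0.13 and -0.25 (edgeR adjusted p = 0.504 and 0.612). The third tropomyosin tested, Tpm3, had a value of 0.25 (adjusted p = 0.465). Myosin II genes had values above 0 in 3 of 4, with 0.16 for the light chain Myl6 and -0.14 for the heavy chain Myh9. The ezrin relative Msn, moesin, had a value of -0.28 (edgeR adjusted p = 0.0857) and the adhesion linker Tln1 0.04, among 5 tested linkage genes with 3 values above 0.

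The 3 intermediate filament genes tested beside vimentin all had values above 0, with 0.23 for Lmna and 0.44 for Lmnb1, which form the nuclear lamina. None of the 3 genes for SRF and its actin-regulated co-activators passed the count filter.

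The ratio of deep to shallow level is given by role as a description, with no test between roles. Of all 4295 protein-coding genes 67.8% were higher in the deep library, and the role medians below lie between the 10th and 90th percentiles of those genes. The 7 tested genes of monomer binding and turnover and the 3 intermediate filament genes were all higher in the deep library, with median log2 ratios of 1.42 and 1.32. Cross-linkers were higher in 11 of 13, with a median of 1.41. Nucleation genes were higher in 9 of 16 and lower in 7, with a median of 0.60, and the lowest of them was Arpc1b at -1.82. Of the tested genes, the lowest outside the muscle actins was the capping gene Capza1 at -3.06, with 1081 to 1259 CPM in the shallow libraries and 139 CPM in the deep library.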

How the data were processed

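Raw counts of fragments per gene were used as the authors deposited them; per the file headers they were made with featureCounts 1.5.1 on exons of the Ensembl release 75 annotation of GRCm38, without a strand option, so reads of a gene and of one antisense to it could not be separated. The submitters' processing notes also name STAR 2.6.0 and Subread, and the library kit was stranded. Sample titles gave the groups and replicate numbers, and gene symbols came for 37607 of 39179 genes from GENCODE mouse release 21. Single-cell libraries of the study were not analysed here. The members, the lists and the tests were chosen with earlier results of these data known.

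Levels are CPM of the deposited counts, divided by merged exon length in kilobases where genes are compared. Genes were filtered with filterByExpr (minimum count 10), scaled by TMM and tested with edgeR 4.0.16 in R 4.3.3 (quasi-likelihood, robust, 2-sided), p-values being adjusted by Benjamini-Hochberg across every tested gene and called under 0.05, once over 6 libraries and once without Sirpa-KO replicate 1. Both fits were checked on counts simulated at the depths of the shallow libraries and with a small spread. The 6-library fit was therefore not checked with a library like the deep one. Shallow replicates of a group exceeded sampling noise (1.15 to 1.45 for chi-square over its degrees of freedom), so each was counted as its own library. The deep library gave 499 against Sirpa-KO replicate 2 and 500 against Sirpa-KO replicate 3 by the same measure, so it was unlike its group mates. Pseudogene sharing was computed from 25-base words of annotated transcripts. The named genes were the 10 members, every called gene of the wider list and the 2 most abundant tested genes per role (some items, 1 role of the list among them, are not reported here by name); the pseudogenes were chosen after their values were seen, and Sirpa is the targeted gene. Alternatives were RLE or library size scaling, no filter, DESeq2 1.42.0, the replicate number as a block, protein-coding genes only, pseudogene counts added to members, each library left out, and, for the 5 libraries, removal of a lowess trend (span 0.3) on the ratio of the deep library to the others.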

Additional observations from a re-analysis of the deposited data

How the results depend on the processing

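Depth limits the 5 shallow libraries, and 1 library decides the comparison. With all 6 libraries edgeR called 0 genes (344 at an unadjusted p under 0.05); DESeq2 called 1, and leaving out each library in turn gave 0 to 322 genes, 0 to 1 of the 10 members and 0 to 4 of the wider list, the upper values each without Sirpa-KO replicate 1. The 322 calls over 5 libraries (73 higher, 249 lower) became 132 with DESeq2, 196 among protein-coding genes only, 104 with the trend removed and 125 to 351 with single libraries left out (lowest without Sirpa-KO replicate 2; 127 when Sirpa-KO replicate 3 was left out and 214 when Sirpa-WT replicate 2 was). Scaling by library size alone turned the split to 279 higher and 128 lower. Where leaving out a library left Sirpa-KO with 1 sample, that sample was assumed to vary like the other group.

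The single member called over 5 libraries became 3 with library size scaling, 2 with the replicate block, 0 without the filter, with DESeq2, among protein-coding genes and with the trend removed, and 0 to 2 with single libraries left out. The 4 calls of the wider list became 7 with library size scaling, 2 without the filter, 1 each with DESeq2, the replicate block and the trend removed, and 1 to 6 with single libraries left out; DESeq2 gave no adjusted p for Actn4, Coro1b or Pls3. Whether replicate numbers pair the libraries could not be told. Same-numbered libraries had deviations correlated at 0.02, -0.04 and 0.06. Each Sirpa-KO deviation was taken from a mean that includes the deep library, which drives all of them. Over 5 libraries the block gave 316 calls, 249 of them shared with the fit without it. Replicate 1 is then Sirpa-WT replicate 1 alone, so the block is nearly the fit without that library (317 calls, 247 shared).

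Some members' values crossed 0. With pseudogene counts added these were Actg1 at -0.20 and Cfl1 at -0.14 over 6 libraries, and Actb at -0.054 and Cfl1 at -0.014 over 5. With the trend removed they were Actb at -0.090, Tmsb10 at -0.033, Tpm4 at -0.21, Vim at -0.20 and Ezr at -0.11. With the replicate block they were Tpm4 at -0.040 and Ezr at -0.15, without the filter Tpm4 at -0.017, and among protein-coding genes Tpm4 at -0.0043. With single libraries left out of the 5, Actb ranged from -0.0095 to 0.23, Tpm4 from -0.12 to 0.13, Vim from -0.12 to 0.19 and Ezr from -0.15 to 0.22. The cause was not tested.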
